A study of Mus musculus with 6 samples.

Results

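The genes described here encode NADPH oxidases, dual oxidases and the subunits that the NADPH oxidases need. The family list held 9 genes: the catalytic subunits Nox1, Nox4, Duox1, Duox2 and Cybb, the membrane partner Cyba, the organizers Ncf1 and Noxo1, and the activator Noxa1. A gene was taken where a probe set of the array carried its symbol alone, and of several such probe sets the one with the greatest mean signal across all arrays stood for it. This gave 6 of the 9 genes, Nox4, Duox1, Cyba, Cybb, Ncf1 and Noxo1, among 18193 genes in all, while Nox1, Duox2 and Noxa1 were not analysed here. The family was chosen by its function with the EKO and WT values of these arrays in view, and its probe sets were selected on mean signal, so the differences between the genotypes are given as a description, with no p-value for any family gene and with counts only where a share over all genes stands beside them.

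NADPH oxidases move electrons from NADPH across a membrane to oxygen, producing superoxide or hydrogen peroxide. The phagocyte enzyme, built on the Cybb product with Cyba, fires when the Ncf1 product and its partners are phosphorylated, among others by protein kinase C, and join it at the membrane. Noxo1 and Noxa1 serve Nox1 as its organizer and activator, and Nox4 needs Cyba but no organizer. The dual oxidases, common in epithelia, are switched on by calcium and need their maturation factors Duoxa1 and Duoxa2. In skin, these enzymes are known from infiltrating phagocytes and from keratinocytes and fibroblasts. TPA, the tumour promoter used here, is a direct activator of protein kinase C.

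Expression was measured on Affymetrix arrays in cells of skin tumours from wild-type (WT) mice and from mice deficient in E-FABP (EKO), the epidermal fatty acid binding protein encoded by Fabp5. Mice of both genotypes had received the carcinogen DMBA and the promoter TPA for 5 months, and each group held 3 arrays labelled as biological replicates, called tumours 1 to 3 here. The sources used here give neither strain, sex nor age, nor how the deficiency was made. No untreated skin was among the arrays. All values are log2 RMA values, and a difference is EKO minus WT, so that 1 stands for a doubling.

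The 6 arrays were alike in distribution, with medians from 5.40 to 5.43, and their number limits the precision of every value. Fabp5 matched the labels in all 6 arrays, with 14.85 ± 0.073 in WT and 8.16 ± 0.166 in EKO tumours (SD, n = 3 each). It was the 1 gene that passed the test over all genes (limma adjusted p = 1.04e-06). The keratinocyte label was borne out by the marker Krt14, which lay at 14.75 in WT and 14.71 in EKO tumours, near the top of each array. Of 13 measured keratinocyte markers, 0 lay below the lower quartile of all arrays. This count does not set keratinocytes apart, since it was also 0 for the macrophage, fibroblast and skeletal muscle markers. Markers of other cells of a digested tumour were present as well, and limma called none of them. Lower means in EKO tumours were seen for 8 of 8 skeletal muscle markers (median difference -1.20, and -0.30 without WT tumour 1), 7 of 8 fibroblast markers and 12 of 14 macrophage markers. In the values of Nox4 and of some other genes, EKO tumour 2 stood apart from EKO tumours 1 and 3, so results that rest on it are given with and without it.

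Of the 6 oxidase genes, Nox4 differed most between the genotypes and the other 5 differed by less than 0.25 in size. By their means 3 of them were above and 3 below WT in EKO tumours, and of all 18193 genes 9105 were above. None of the 6 passed limma's threshold of 0.05 over all genes, where 0.00550% of all genes did. Without EKO tumour 2, 1 of the 6 passed it, as did 42 of the 18193 genes, and with any other array left out 0 of the 6 did. Leaving out the EKO tumour that stood apart narrows the EKO spread, so nothing is read from this count. Ncf1 alone had groups that did not overlap, lower in EKO, 1 of 6. Over all genes 12.0% had such groups, 5.78% higher and 6.19% lower in EKO tumours. The family median was 0.01, and that of all genes 0.00. A difference of at least 1 in size was seen for Nox4 alone, against 0.835% of all genes. Since the genes were chosen with this contrast in view, nothing is read from these shares.

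**Figure D1:**
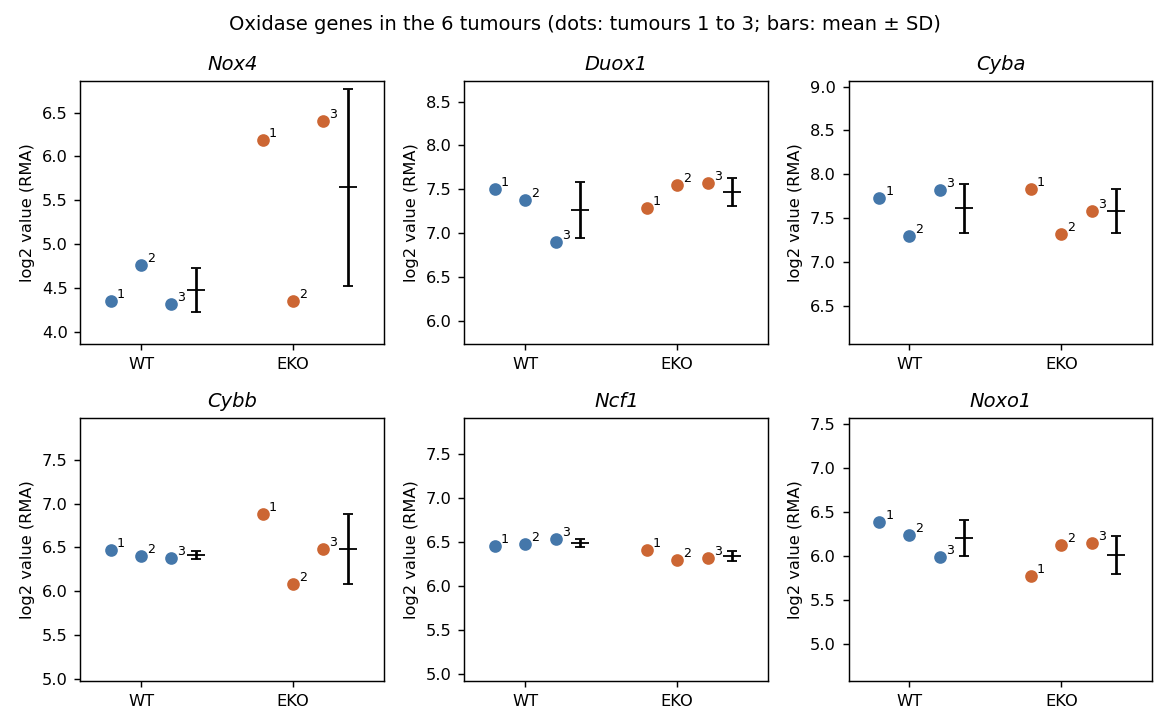
Log2 values of the 6 oxidase genes (vertical axes, each spanning the same number of log2 units) in the WT and EKO tumours, with dots for single tumours numbered 1 to 3 and bars for the mean ± SD. Nox4 is high in EKO tumours 1 and 3, at 6.18 and 6.40, and at WT level in EKO tumour 2, while the groups of the other genes lie close together.

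The promoters of Nox4 and of the neighbouring genes Duox1 and Duoxa1 are shown. Nox4 was taken because it varied most among the tumours, and the Duox1 pair because both its genes had signal above the array medians. Duox2 was not analysed, so its signal is not known here. Each window is the 250 bases before the gene's start in RefSeq on GRCm38.p6, 5′ to 3′ on the gene's own strand. Nox4 lies on the plus strand at chr7:87246399-87246648, Duoxa1 on the minus strand at chr2:122313731-122313980 and Duox1 on the plus strand at chr2:122315422-122315671. Capitals mark matches to CNTTGT, a core that SOX factors recognise, searched on both strands because the study's title is about SOX2.

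Nox4: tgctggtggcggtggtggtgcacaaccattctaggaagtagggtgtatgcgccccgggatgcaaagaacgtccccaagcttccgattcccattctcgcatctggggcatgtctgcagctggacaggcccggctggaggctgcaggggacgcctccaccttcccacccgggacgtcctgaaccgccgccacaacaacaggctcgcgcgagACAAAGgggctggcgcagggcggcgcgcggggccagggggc

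Duoxa1: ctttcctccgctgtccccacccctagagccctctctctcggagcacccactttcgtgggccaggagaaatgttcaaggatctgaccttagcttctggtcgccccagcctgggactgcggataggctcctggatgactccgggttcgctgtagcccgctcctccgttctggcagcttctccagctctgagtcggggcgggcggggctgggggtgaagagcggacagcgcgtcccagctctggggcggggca

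Duox1: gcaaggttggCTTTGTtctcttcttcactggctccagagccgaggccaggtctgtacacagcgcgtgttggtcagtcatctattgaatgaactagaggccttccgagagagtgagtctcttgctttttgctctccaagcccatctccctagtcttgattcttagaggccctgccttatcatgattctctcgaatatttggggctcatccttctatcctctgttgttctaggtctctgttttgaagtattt

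The SOX core stood once in the Nox4 window, 41 to 36 bases before the start, and once in the Duox1 window, 240 to 235 bases before it. Such a match was found in 36.3% of 32851 RefSeq promoter windows of the same length, and in 3 of the 9 family promoters (Nox1, Nox4 and Duox1). TGANTCA was searched as a looser form of the AP-1 site known as the TPA response element, whose middle base is C or G. It stood in 1 of the 9, that of Cybb, and in 6.75% of all windows. The Cybb match read TGAATCA, so it is not that element, and the share is that of the looser form. The motifs cannot overlap in these 3 windows, since TGANTCA is in none of them. The Nox4 window is rich in G and C, 67.2% against a median of 52.4% over all windows, and Duoxa1 follows at 65.6%, while Duox1 has 47.6%. A match of letters is a description of the sequence and does not show that a factor binds there.

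Among the catalytic subunits, Nox4, an oxidase that is active as soon as it is made and mainly yields hydrogen peroxide, was high in only some EKO tumours. Its log2 values were 4.35, 4.76 and 4.32 in WT tumours 1, 2 and 3, and 6.18, 4.36 and 6.40 in EKO tumours 1, 2 and 3. EKO tumours 1 and 3 thus lay above every WT tumour and EKO tumour 2 lay inside the WT range, so the groups overlap. The means were 4.48 ± 0.247 in WT and 5.65 ± 1.12 in EKO tumours (SD, n = 3 each), a difference of 1.17 (SE 0.504), or 2.25-fold on this scale. All 3 WT values and that of EKO tumour 2 lay below their array's median, where RMA narrows differences, so the size of the difference is not exact. Over the 6 tumours its values spanned 2.09, a wider range than that of 98.5% of all genes.

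The dimmer Nox4 probe set placed the tumours in a similar way on a much narrower scale. It read 3.77, 3.59 and 3.71 in WT and 4.01, 3.74 and 4.21 in EKO tumours, a difference of 0.30. EKO tumours 1 and 3 were again the highest, and EKO tumour 2 again lay inside the WT range. Every value of this probe set was below its array's median and 4 of 6 were below the lower quartile. With the mean of both probe sets the difference was 0.73.

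Without EKO tumour 2 the Nox4 difference was 1.82, and without EKO tumour 1 or 3 it was 0.90 or 0.79. Its size thus moved by more than the WT spread with the choice of EKO tumours, while its sign stayed.

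**Figure D2:**
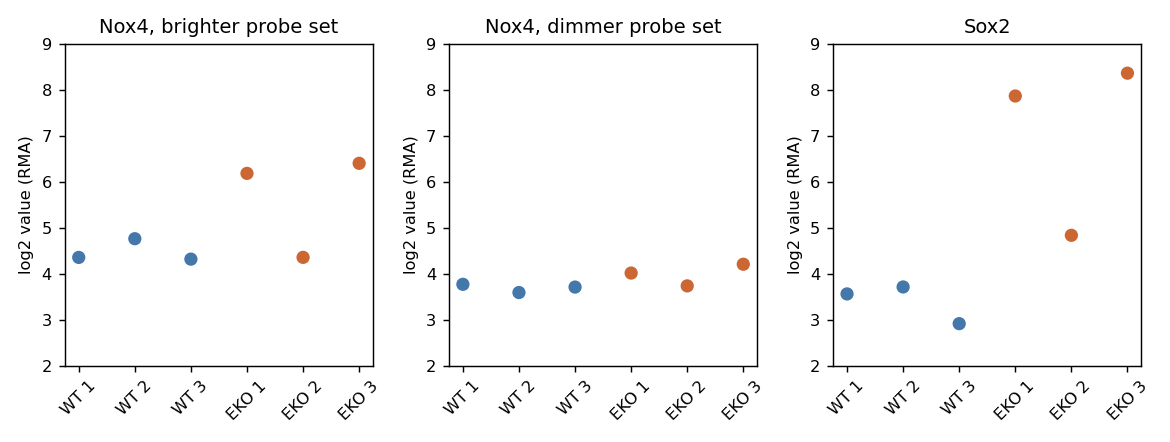
Log2 values (vertical axes, all from 2 to 9) of the brighter and the dimmer Nox4 probe set and of Sox2 in WT tumours (blue) and EKO tumours (orange), one dot per tumour. In each panel EKO tumours 1 and 3 are the highest, and EKO tumour 2 lies at 4.36, 3.74 and 4.84.

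Sox2, the transcription factor of the study's title, had its highest values in the same tumours as Nox4. It read 3.56, 3.71 and 2.91 in WT and 7.87, 4.84 and 8.36 in EKO tumours, a difference of 3.63 (SE 0.851, limma adjusted p = 0.593). Unlike Nox4, Sox2 was above all WT values in EKO tumour 2 as well. Among 9096 genes with a mean above the median of all gene means, those most like Nox4 over the 6 tumours were Ercc1, a DNA repair nuclease subunit, and Anxa1, a phospholipid-binding annexin (Pearson r = 0.995 with each). Next came Sprr2k of the cornified envelope (r = 0.989), the homeodomain protein gene Hopx (r = 0.989) and Fst, which encodes the activin antagonist follistatin (r = 0.988). These values share the same 6 arrays and were the highest of many, so they describe the pattern only. Sprr2k and Fst differed between the groups by 1.65 (SE 0.621) and 1.55 (SE 0.516), with means of 10.05 and 10.02 in EKO tumours, whereas Ercc1, Anxa1 and Hopx differed by 0.26, 0.31 and 0.35. None of these 5 passed the test (limma adjusted p from 0.630 to 0.756).

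Nox4 is also known from stromal cells, whose markers varied among the tumours too. The mean level of 8 fibroblast markers lay 0.21 above their mean over the 6 tumours in EKO tumour 1 and at -0.23 in EKO tumour 3, which had the highest Nox4. In EKO tumour 2 it was -0.33, and in the WT tumours it ran from -0.26 to 0.41. The 6 smooth muscle markers were at 0.14, -0.25 and -0.11 in EKO tumours 1, 2 and 3 and between -0.30 and 0.42 in WT tumours. They were not uniform, with 2 higher and 4 lower means in EKO tumours. Acta2 read 10.41, 9.87 and 10.42 in WT and 11.19, 10.16 and 10.67 in EKO tumours, a difference of 0.44 (SE 0.272, limma adjusted p = 0.775). Myh11 was lower in every EKO tumour than in any WT tumour, at -0.79 (SE 0.254, limma adjusted p = 0.625). The 8 endothelial markers lay between -0.19 and -0.00 in EKO and between -0.20 and 0.42 in WT tumours. The part of such cells in the Nox4 values was not tested. In bulk samples, fewer cells of a type and less RNA per cell cannot be told apart.

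Duox1, a dual oxidase of epithelia that releases hydrogen peroxide at the cell surface, was similar in both genotypes. It read 7.50, 7.38 and 6.90 in WT and 7.28, 7.55 and 7.57 in EKO tumours. The groups overlap, and WT tumour 3 was the lowest of all. The means were 7.26 ± 0.318 in WT and 7.47 ± 0.160 in EKO tumours (SD, n = 3 each), a difference of 0.21 (SE 0.171). Without WT tumour 3 it was 0.03, and without WT tumour 1 it was 0.33.

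The genes most like Duox1 over the 6 tumours were Zbtb7c, a zinc finger gene (Pearson r = 0.992), the ubiquitin ligase gene Trim25 (r = 0.988) and Nbeal2 (r = 0.988). Il6ra, the interleukin 6 receptor gene, and Nckipsd followed (r = 0.982 and 0.979). Their differences lay between 0.08 and 0.28, and none of the 5 passed the test (limma adjusted p from 0.816 to 0.879).

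Duox1 lies head to head with Duoxa1, whose product brings the enzyme to the cell surface, with 1942 bases between their starts on GRCm38.p6. Duoxa1 read 8.56, 8.85 and 8.70 in WT and 8.93, 8.74 and 8.91 in EKO tumours, a difference of 0.16 (SE 0.108, limma adjusted p = 0.802). WT tumour 3, the lowest for Duox1, held the middle WT value of Duoxa1. Duoxa2, the maturation factor of Duox2, sits 673 bases from Duox2 in the same arrangement. It lay below the lower quartile on all 6 arrays, at 3.02 ± 0.214 in WT and 3.13 ± 0.0896 in EKO tumours (SD, n = 3 each), too low to compare.

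Cybb, the catalytic subunit of the phagocyte oxidase, varied far more among EKO than among WT tumours. It read 6.47, 6.40 and 6.38 in WT and 6.88, 6.08 and 6.48 in EKO tumours. EKO tumour 1 was the highest and EKO tumour 2 the lowest of all, on either side of the WT values. The SD was 0.0461 in WT and 0.400 in EKO tumours around means of 6.42 and 6.48, a difference of 0.06 (SE 0.189). The sign is not settled: it was -0.14 without EKO tumour 1 and 0.26 without EKO tumour 2. The other Cybb probe sets had differences of 0.09 and -0.16 and lay below the array medians on all 6 arrays.

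Over the 6 tumours, the genes most like Cybb were Rpl39l, which encodes a ribosomal protein of the large subunit (Pearson r = 0.991), Fancl of the Fanconi anaemia repair complex (r = 0.985) and the ciliary transport gene Ift74 (r = 0.985). The translation factor subunit gene Eif3e (r = 0.984) and Tm2d3 (r = 0.981) came next. None was on the macrophage or neutrophil lists, but these lists are short beside the 9096 candidates, so nothing is read from that. The differences of these genes between the genotypes lay between -0.00 and 0.06.

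Cyba, the membrane partner that stabilises both the Cybb product and Nox4, did not separate the genotypes. It read 7.73, 7.30 and 7.82 in WT and 7.83, 7.33 and 7.58 in EKO tumours. Tumour 2 was the lowest within each group, and the groups overlap throughout. The means were 7.61 ± 0.279 and 7.58 ± 0.253 (SD, n = 3 each), a difference of -0.03 (SE 0.179) that ran from -0.19 to 0.09 when single tumours were left out. In EKO tumour 3, where Nox4 was highest, Cyba lay inside its WT range.

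Ncf1, the cytosolic organizer of the phagocyte oxidase, was slightly lower in every EKO tumour. It read 6.45, 6.48 and 6.54 in WT and 6.41, 6.30 and 6.32 in EKO tumours. The groups do not overlap, but the gap between WT tumour 1 and EKO tumour 1 is small beside the spread within EKO. The means were 6.49 ± 0.0455 and 6.34 ± 0.0607 (SD, n = 3 each), a difference of -0.15 (SE 0.0809), which is 1.11-fold lower. The other Ncf1 probe sets differed by -0.11, with overlap, and by -0.29, without. The last of these lay below the lower quartile on all 6 arrays, so its size is uncertain.

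Noxo1, the organizer that takes the place of Ncf1 in the Nox1 complex, had a lower mean in EKO tumours with overlapping groups. It read 6.38, 6.24 and 5.99 in WT and 5.77, 6.13 and 6.15 in EKO tumours. EKO tumour 1 was the lowest of all, and EKO tumours 2 and 3 lay inside the WT range. The means were 6.20 ± 0.202 and 6.01 ± 0.214 (SD, n = 3 each), a difference of -0.19 (SE 0.147). It was -0.07 without EKO tumour 1 and -0.30 without WT tumour 3.

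**Figure D3:**
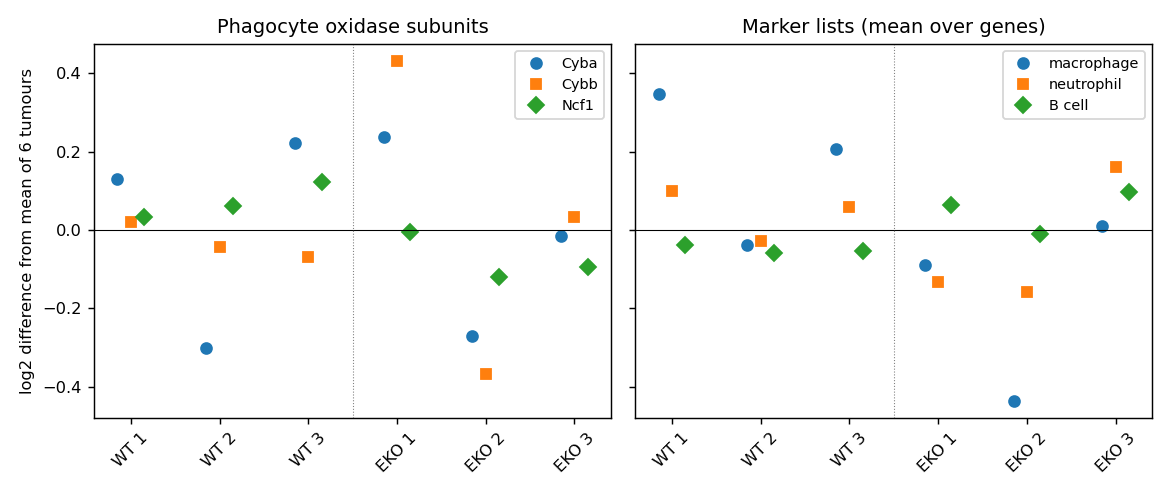
Left, log2 values of Cyba, Cybb and Ncf1 as differences from each gene's mean over the 6 tumours. Right, the same for the mean of the macrophage, neutrophil and B cell markers. Cybb is highest in EKO tumour 1 and lowest in EKO tumour 2, while the macrophage markers are highest in WT tumour 1 and lowest, at -0.44, in EKO tumour 2.

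Cybb, Cyba and Ncf1 are expressed by phagocytes, so phagocyte markers are given beside them. Limma called 0 of 14 macrophage and 0 of 11 neutrophil markers (smallest adjusted p = 0.576 and 0.650). By unadjusted p under 0.05 there were 5 of 14 and 2 of 11, against 7.13% of all genes. The mean level of 14 macrophage markers ran from -0.04 to 0.35 in WT and from -0.44 to 0.01 in EKO tumours, with a median difference of -0.36. That median was -0.22 without WT tumour 1 and -0.23 without EKO tumour 2. Of the 14, 4 had groups without overlap, all lower in EKO, where 6.19% of all genes did. None of the 14 lay below the lower quartile on all arrays. The 11 measured neutrophil markers ran from -0.03 to 0.10 in WT and from -0.16 to 0.16 in EKO tumours, with 4 higher and 7 lower means. Of these, Ngp, Camp, Ltf, Elane and Mpo lay below the array medians on all 6 arrays and Mmp8 on 5. The 7 B cell markers, of another cell type with Cybb, ran from -0.06 to -0.04 in WT and from -0.01 to 0.10 in EKO tumours, with 4 higher and 3 lower means and 0 called by limma. Without Jchain, which differed by 0.69, the other 6 ran from -0.01 to 0.01 in WT and from -0.03 to 0.05 in EKO tumours. Among them, Cd22 (-0.25) and Pax5 (-0.14) were lower in EKO without overlap. Jchain, Cd79b, Ms4a1, Blk and Pax5 lay below the array medians on all 6 arrays, and Jchain below the lower quartile on 3. The sizes of their differences are therefore uncertain. EKO tumour 2 was thus lowest both for the macrophage markers and for Cybb, and EKO tumour 1, highest for Cybb, had a macrophage level of -0.09. The part of these cells in the values of Cybb, Cyba and Ncf1 was not tested.

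The partners and regulators of the oxidases were measured beside the family, and none of them passed the test. Of 15 listed subunits and assembly factors, 14 were measured, 8 with higher and 6 with lower means in EKO tumours and a median difference of 0.04. Limma called 0 of the 14, and by unadjusted p under 0.05 there was 1, Nrros, which restrains reactive oxygen production in phagocytes by lowering the level of the Cybb product. Nrros read 6.75, 6.75 and 6.65 in WT and 6.56, 6.36 and 6.50 in EKO tumours. All EKO values lay below all WT values, with a difference of -0.24 (SE 0.0895, limma adjusted p = 0.659).

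The other subunits differed by at most 0.16 in size, the largest being that of Duoxa1. The cytosolic subunit gene Ncf4 had a difference of 0.09 (SE 0.127). The GTPase genes Rac1, Rac2 and Rac3, which activate the phagocyte and Nox1 enzymes, had differences of 0.12, -0.13 and 0.02, with SEs of 0.114, 0.120 and 0.0993. Cybc1, a chaperone of the Cybb and Cyba products, and Rap1a, a small GTPase that copurifies with them, were at -0.03 and -0.06. The scaffolds Sh3pxd2a and Sh3pxd2b, related to Ncf1, were at 0.06 and 0.12, and the proton channel gene Hvcn1 at -0.04. Poldip2, a Nox4 partner, was at -0.00 and the disulphide isomerase gene P4hb at 0.11. Limma's adjusted p ran from 0.802 to 0.998 over these 13 genes.

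**Figure D4:**
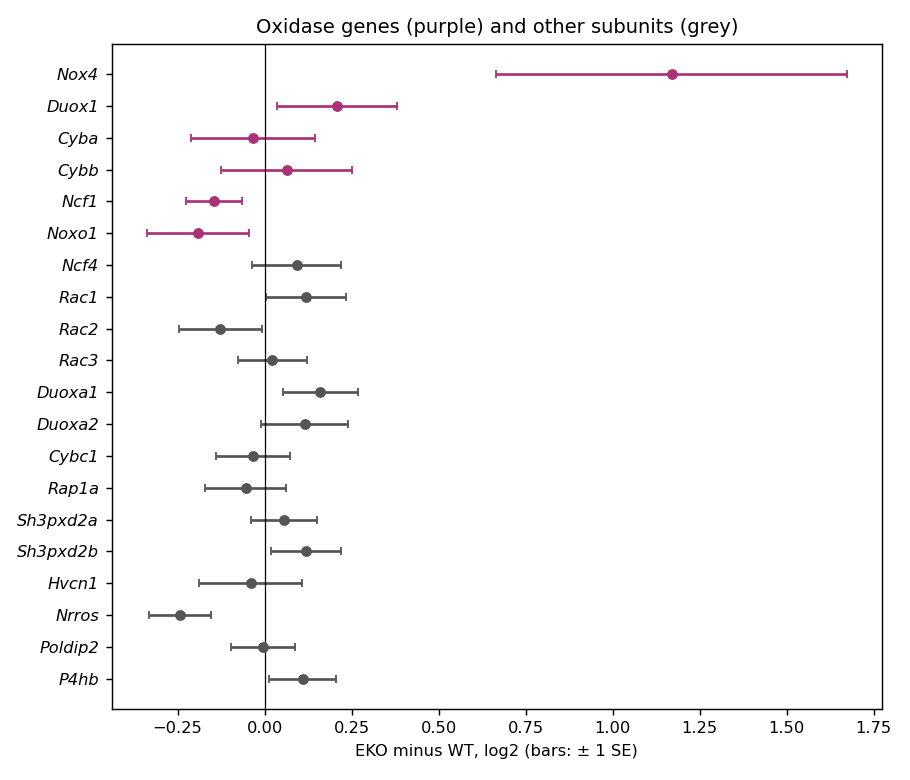
Differences between EKO and WT means (horizontal axis, log2) of the 6 oxidase genes in purple and of 14 other subunits and assembly factors in grey, with bars of ± 1 SE. Nox4 lies at 1.17 with an SE of 0.504, and every other gene lies between -0.24 and 0.21.

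Among protein kinase C isoforms and Rac regulators, 7 of 13 measured genes had higher and 6 lower means, and limma called 0, with 2 by unadjusted p under 0.05. These were Prkcb, a kinase of the Ncf1 product, at -0.28 (SE 0.0913, adjusted p = 0.625) and Prkcq at -0.28 (SE 0.110, adjusted p = 0.667). Each was lower in all EKO tumours than in any WT tumour. Arhgdib, a Rac inhibitor of blood cells, was at -0.49 (SE 0.243) and Prkcz at -0.26 (SE 0.153), both with overlap. Without EKO tumour 1 they were -0.26 and -0.10, and with the mean over a gene's probe sets Prkcz was 0.02 and Prkcb -0.14.

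The enzymes and channels that make, use or pass on hydrogen peroxide held 7 higher and 7 lower means among 14 measured genes, with 0 called by limma and 2 by unadjusted p under 0.05. Lpo, the lactoperoxidase gene, whose product uses hydrogen peroxide of dual oxidases in secretions, read 8.82, 8.86 and 8.15 in WT and 7.64, 7.84 and 8.17 in EKO tumours. EKO tumour 3 just overlapped WT tumour 3, and the difference was -0.73 (SE 0.221, limma adjusted p = 0.623). Cat, the catalase gene, was higher in every EKO tumour, at 10.10 ± 0.0445 in WT and 10.36 ± 0.0742 in EKO (SD, n = 3 each). Its difference was 0.27 (SE 0.0829, limma adjusted p = 0.625). Pxdn, a peroxidase of the matrix, was at 0.43 (SE 0.227; 0.22 to 0.58 with single tumours left out), and Epx, the eosinophil peroxidase gene, at -0.21 and below the array medians on all 6 arrays.

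Cytokines and receptors known to induce oxidases had lower means in EKO tumours for 13 of 16 measured genes, with a median difference of -0.05. Il4, Il13, Ifng, Tnf and Tgfb1, all among the lower, lay below the array medians on all 6 arrays. Their differences ran from -0.12 to -0.01, too close to the floor for their signs to count. The median over the 16 turned to 0.01 without EKO tumour 2, and was -0.12 without WT tumour 3 and -0.01 without WT tumour 1. Limma called 0 of the 16, and 2 had an unadjusted p under 0.05. Both were chains of the interferon gamma receptor, which raises phagocyte and dual oxidase expression. Ifngr2 read 7.62, 7.37 and 7.26 in WT and 6.55, 6.90 and 6.83 in EKO tumours, without overlap, a difference of -0.66 (SE 0.135, limma adjusted p = 0.546). Ifngr1 was at -0.35 (SE 0.134, adjusted p = 0.662), also without overlap, and at -0.22 without WT tumour 1. Il17a was at -0.25 (SE 0.153) and Il13, below the array medians on all 6 arrays, at -0.12 (SE 0.0794). Over the 4 lists, 7 of 57 genes had an unadjusted p under 0.05, 12.3%, against 7.13% of all genes, and 7 had groups without overlap, 12.3% against 12.0%.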

How the data were processed

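Per the submitters' processing notes, RMA and Partek 6.6 made the deposited values, which are on the log2 scale. RMA corrects background, equalises the arrays' quantiles and summarises probe sets, which narrows differences near the floor. The values, 2.23 to 14.97, were taken as they stand. They carry no detection calls, and low values were not filtered out. No batch was examined, for want of scan dates. The labels name biological replicates without saying more, so p-values measure the spread between these samples.

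Of 45101 probe sets, 64 controls were left out, and 34945 of the others carried 1 symbol, giving 18193 genes by the brightest probe set. The genotypes were compared over all genes with limma 3.58.1 (R 4.3.3; lmFit, eBayes; two-sided; Benjamini-Hochberg adjustment; threshold 0.05), after tests on simulated data. The family and the gene lists, written from general knowledge, were chosen with earlier results of these data known, and 1 gene of them is not reported here. The text names the family, the other subunits, up to 4 genes per further pathway list by smallest unadjusted p, Fabp5, Sox2, and the 5 genes most correlated with each of the 3 family genes of widest range. Krt14, Acta2, Myh11, Jchain, Cd22, Pax5 and the genes under the closing observations were chosen after their values were seen. Alternatives were a replicate block, quantile normalization done again, centred array medians, a mean over probe sets, each array left out, only genes with a mean above the median gene, robust variances with an intensity trend, weights per array, and all probe sets. Promoter sequences came from RefSeq on GRCm38.p6, and all 9 family symbols matched.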

Additional observations from a re-analysis of the deposited data

How the results depend on the processing

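The number of genes past limma's threshold, 1 with all arrays, ran from 1 to 42 when single arrays were left out: 42 without EKO tumour 2 (38 higher, 4 lower), 2 without WT tumour 2 and 1 in the other 4 fits. It was 2 with all probe sets and 1 under the remaining alternatives. Of the 57 pathway genes outside the family, 0 passed under 12 alternatives that tested all of them, and 0 of 38 passed among genes with a mean above the median gene. Leaving Jchain out of the B cell markers was chosen after seeing the data. Whether the replicate numbers pair the tumours was not settled. Same-numbered tumours deviated with correlations of -0.07, -0.09 and -0.34, and differently numbered ones with correlations from -0.19 to 0.26. The deviations within a group are tied to one another, so these values cannot decide it. With a replicate block the number of genes past the threshold was 1. The Nox4 difference, which a balanced block cannot change, was 1.17. Nox4, Duox1, Ncf1 and Noxo1 kept the sign of their differences under all 10 alternatives run for the family, with ranges of 0.73 to 1.82, 0.03 to 0.33, -0.18 to -0.12 and -0.30 to -0.07. Cyba changed sign under 3 and Cybb under 2 of them. The call of Sox2 depended on EKO tumour 2, without which its adjusted p was 0.00416 (difference 4.72; range over its alternatives, 0.00416 to 0.998). Signals near or below the array medians, as for Nox4 in WT tumours, limit how well a difference can be sized.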

Other observations

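Il1b and Cd14, chosen after their values were seen, were also lowest in EKO tumour 2 and highest in EKO tumours 1 and 3. Il1b, an inflammatory cytokine of phagocytes and keratinocytes, read 7.37, 7.71 and 6.52 in WT and 7.89, 6.43 and 8.82 in EKO tumours, a difference of 0.51 (SE 0.591, limma adjusted p = 0.879). Cd14, a receptor for bacterial lipopolysaccharide, read 7.19, 7.03 and 6.45 in WT and 7.35, 6.38 and 8.31 in EKO tumours, a difference of 0.46 (SE 0.456, limma adjusted p = 0.856). For both genes the EKO tumours spanned a wider range than the WT tumours, as they did for Nox4 and Cybb.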
